A study of Rattus norvegicus with 6 samples.

Results

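The accessible sites (ACS) of 10 genes of the Wnt pathway were examined in rat pancreatic islets at 2 ages by ATAC-seq, which marks open chromatin with the Tn5 transposase. The genes were the ligands *Wnt4*, *Wnt5a* and *Wnt5b*, the receptor *Lgr4*, the destruction complex members *Apc* and *Axin2*, the β-catenin gene *Ctnnb1*, and the transcription factors *Tcf7l1*, *Tcf7l2* and *Lef1*. An ACS was taken as a member when the deposited table gave one of these as its nearest gene, which selected 95 of the 101603 distinct ACS of the series. The values are the number of Tn5 integrations that each library had in each ACS, and coordinates are those of the Rn5 assembly. The Adult group held 3 libraries, numbered 4, 5 and 6, each from the dissociated islets of a single adult male Sprague–Dawley rat. The P10 group held 3 libraries, numbered 1, 2 and 3, each from a few pups, of both sexes and on postnatal day 10, out of 3 litters. The animals were of the same strain and no treatment is given, and age, sex and the pooling of pups differed together, so their effects cannot be told apart. The cells were not sorted. A shift in the share of a cell type and a change in accessibility per cell therefore cannot be told apart either.

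Wnt ligands bind Frizzled and LRP receptors at the cell surface, and LGR receptors such as *Lgr4* bind R-spondins, secreted proteins that strengthen the signal. Without a ligand, a complex built on the scaffold proteins APC and AXIN marks β-catenin for degradation. With a ligand, β-catenin accumulates, enters the nucleus and binds TCF/LEF factors on DNA, and *Axin2* is itself a common target that feeds back on the pathway. *Wnt4*, *Wnt5a* and *Wnt5b* are better known for signals that do not pass through β-catenin. In islets the pathway is studied in β-cell proliferation and maturation, and intronic variants of human *TCF7L2* are associated with diabetes risk.

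Accessibility was given as CPM, the integrations of an ACS scaled to a common library size by edgeR's TMM method, and log2 fold changes are Adult over P10 with their standard errors (SE). The quasi-likelihood test of edgeR was fitted over all ACS, with p-values adjusted by the Benjamini-Hochberg method over all of them. With the limits of the study, p below 0.05 together with FDR below 0.2, an ACS was called as Up when more accessible in adults and as Down when more accessible at P10. The libraries held between 7916919 and 11903909 integrations in adults and between 13491534 and 21168463 at P10. The spread between replicates exceeded counting error, and their chi-square over its degrees of freedom was 3.35 to 7.81. Among genes that define islet cells, ACS were listed at *Ins1*, *Ins2*, *Gcg* and *Sst*, while *Mafa* and *G6pc2* had none. Integrations in ACS per 100 reads were between 2.48 and 3.05 in adults and between 4.05 and 5.77 at P10. If total reads were taken as library sizes, the median log2 fold change of all ACS was -0.84 instead of -0.01, so every direction given here is relative to the bulk of the ACS.

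Of the 95 ACS, 13 were called Up, 14 were called Down and 68 were not called. Over all ACS of the series, 12.3% were called Up and 6.63% Down, against 13.7% and 14.7% of these 95. Against these shares, the Up share lay near the background and the Down share above it. At the same limits the study itself reported more Down than Up ACS, the reverse of this background. The comparison therefore depends on which background is taken, and the reason for the difference was not tested. At an FDR under 0.05 the counts were 7 Up and 4 Down, where the background was 7.06% and 1.91%, or 8.98% in either direction. The 3 adult values did not overlap the 3 P10 values at 29 ACS, against 24.7% of all ACS. The separated ACS included 12 of the 13 Up and 12 of the 14 Down, where 84.3% of all Up and 83.0% of all Down ACS of the series were separate. Leaving out each library in turn, 8 Up and 3 Down ACS were called in all 6 fits, a share not counted over all ACS. The Down count was sensitive to single libraries, with 8 without adult replicate 4, 9 without adult replicate 6 and 9 without P10 replicate 1. It was 7 without P10 replicate 2 and 8 without P10 replicate 3. Over all ACS the Down count was 6738 in the full fit. It fell to 5456 and 5041 without adult replicates 4 and 6. Without P10 replicates 2 and 3 it fell to 3285 and 4232, and without P10 replicate 1 it was 6892. The Up count was 8 without P10 replicate 3, where that of all ACS fell from 12504 to 8908.

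**Figure D1:**
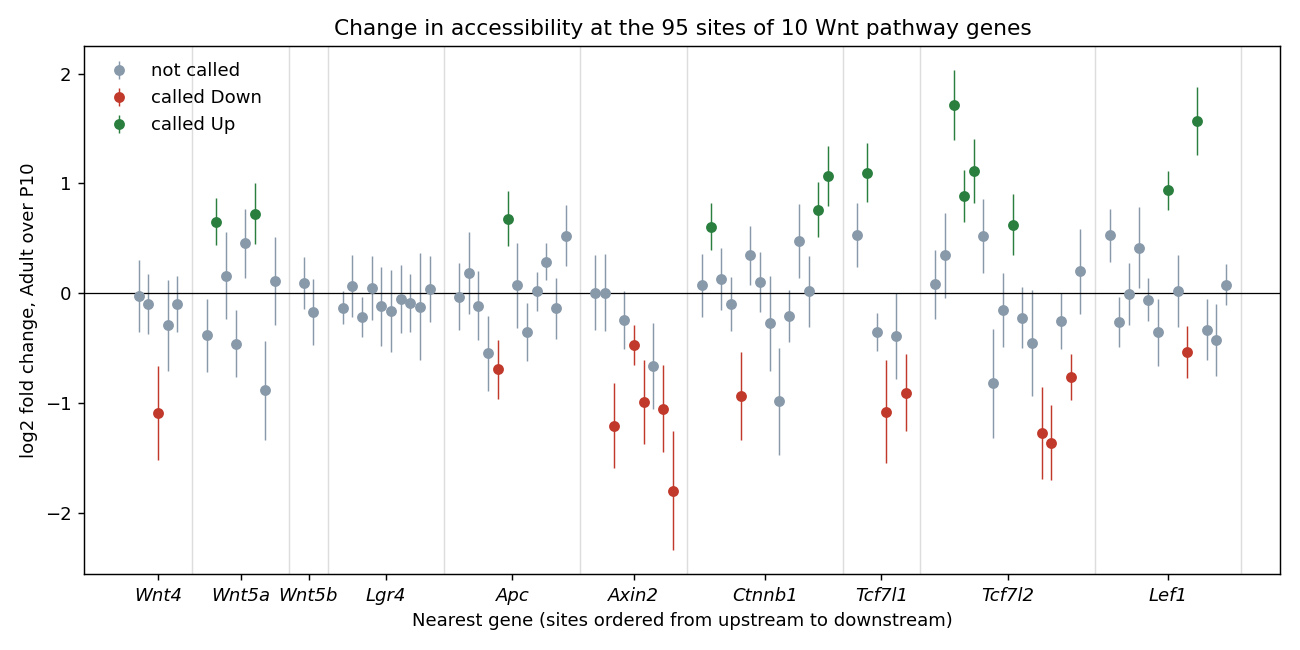
Log2 fold change (Adult over P10, vertical axis) of the 95 ACS, grouped by nearest gene and ordered from upstream to downstream within each gene, where points are the edgeR estimates, bars are 1 SE and colours give the call. All 10 ACS of *Lgr4* lie near 0, while *Tcf7l2* has 4 Up ACS on its left and 3 Down ACS on its right. With total reads as library sizes 6 of the 13 Up estimates turn negative.

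By position, 86 ACS were classed as distal, 5 as TSS and 4 as proximal. All 13 Up ACS were distal, whereas the Down ACS were 12 distal, 1 proximal and 1 TSS. In the whole series 13.8% of distal ACS were called Up and 6.45% Down, and in the TSS class these shares were 2.73% and 7.87%, or 10.6% together. In the proximal class they were 11.2% and 6.71%, or 17.9% together, and in the distal class 20.2% were called either way. The Up ACS lay far from the genes, with a median shortest distance of 160351 bp against 59549 bp for all Up ACS. Of them, 9 lay beyond 100 kb, a share of 69.2% where all Up ACS had 37.8%. The 9 included all 4 Up ACS of *Tcf7l2* and all 3 of *Ctnnb1*, so the distances rest largely on 2 genes. The listed span of *Tcf7l2* is shorter than the gene is known to be, which may overstate its distances. The Down ACS had a median distance of 32761 bp against 40634.5 bp for all Down ACS, and 1 of the 14 (7.14%) lay beyond 100 kb, where all Down ACS had 32.3%. Restricting the genes to ACS within 100 kb left 4 Up and 13 Down. The nearest gene is an assignment by distance only, and a distal ACS may belong to another gene. The Up ACS held more integrations, with a median mean count of 94.0, than the Down ACS with 44.3, and the same order held for all ACS of the series, with 104 for Up and 57.8 for Down. When all ACS of the series were split by mean count into 4 equal parts, from low to high, 9.21%, 18.4%, 24.8% and 23.3% were called.

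*Tcf7l2*, whose protein is the TCF factor bound by β-catenin in many epithelial cells, had the most ACS (16) and the most calls, with 4 Up and 3 Down. The table lists the gene at chr1:284095287-284118927, a span of 23641 bp, and the gene is known to be much longer in mammals. ACS named upstream here may therefore lie inside it. In coordinate order the 4 Up ACS came first, between 168350 and 122323 bp upstream of the listed start, and the 3 Down ACS followed, between 31201 bp upstream and 58219 bp downstream of it. Between the last Up and the first Down ACS lay a gap of 90744 bp. Across the series, 437 of the 537 genes with at least 7 called ACS had calls in both directions, so a mixed gene was common.

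The smallest p-value of the 95 ACS and the largest gain were at chr1:283926937-283927154, 168350 bp upstream of the listed start of *Tcf7l2*. It held 6.87, 4.77 and 5.80 CPM in adults 4, 5 and 6 and 1.95, 1.28 and 2.01 CPM in P10 libraries 1, 2 and 3. Every adult value was more than the highest P10 value, and the log2 fold change was 1.71 ± 0.32 (SE, n = 3 and 3, edgeR adjusted p = 0.000687). The next Up ACS, at chr1:283932594-283933096, started 5439 bp beyond its end and held 11.5, 9.64 and 10.6 CPM in adults against 5.86, 5.42 and 5.87 at P10. It changed by 0.88 ± 0.24 (edgeR adjusted p = 0.0166), with little spread inside either age. A further 1533 bp on, the ACS at chr1:283934630-283934936 had 8.04, 5.16 and 7.22 CPM in adults and 2.74, 3.85 and 2.91 at P10. Its log2 fold change was 1.11 ± 0.29 (edgeR adjusted p = 0.0132). These 3 Up ACS, close to each other, were called whichever library was left out. With total reads as library sizes the first stayed called, with 0.87, and its neighbours were 0.046 and 0.29 without a call. The fourth Up ACS, at chr1:283972964-283973341, had 5.77 ± 0.63 CPM in adults and 3.77 ± 0.33 at P10 (SD, n = 3 each). Its log2 fold change was 0.62 ± 0.28 (edgeR adjusted p = 0.184), and it was called in none of the fits with a library left out, where its change stayed between 0.54 and 0.69. It was also not called with column sums (0.53) or cyclic loess scaling (0.53) and had a negative sign with total reads (-0.20).

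The Down ACS of *Tcf7l2* were nearer to the listed gene. At chr1:284082135-284082341, 13152 bp upstream, adults had 2.35, 1.36 and 1.68 CPM and P10 libraries had 3.53, 5.56 and 4.97. Adult values were all lower, with a log2 fold change of -1.36 ± 0.34 (edgeR adjusted p = 0.0102). At chr1:284153506-284154093, downstream of the listed end, the values were 9.94, 10.0 and 12.4 CPM in adults and 19.2, 17.8 and 17.7 at P10. This broader ACS changed by -0.76 ± 0.21 (edgeR adjusted p = 0.0183), and both were called in all fits with a library left out. At chr1:284064086-284064344 adults had 0.452, 1.95 and 1.16 CPM and P10 had 2.60, 3.14 and 2.85. The change was -1.27 ± 0.42 (edgeR adjusted p = 0.0569) and was not called without adult replicate 4, where it was -0.85. The TSS-class ACS, at chr1:284095895-284096597 and 608 bp inside the gene, had 9.21 ± 3.42 CPM in adults and 11.1 ± 1.14 at P10 (SD, n = 3 each). Its groups overlapped and its log2 fold change was -0.25 ± 0.25 (edgeR adjusted p = 0.634). The other 8 uncalled ACS of this gene had log2 fold changes between -0.82 and 0.52.

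**Figure D2:**
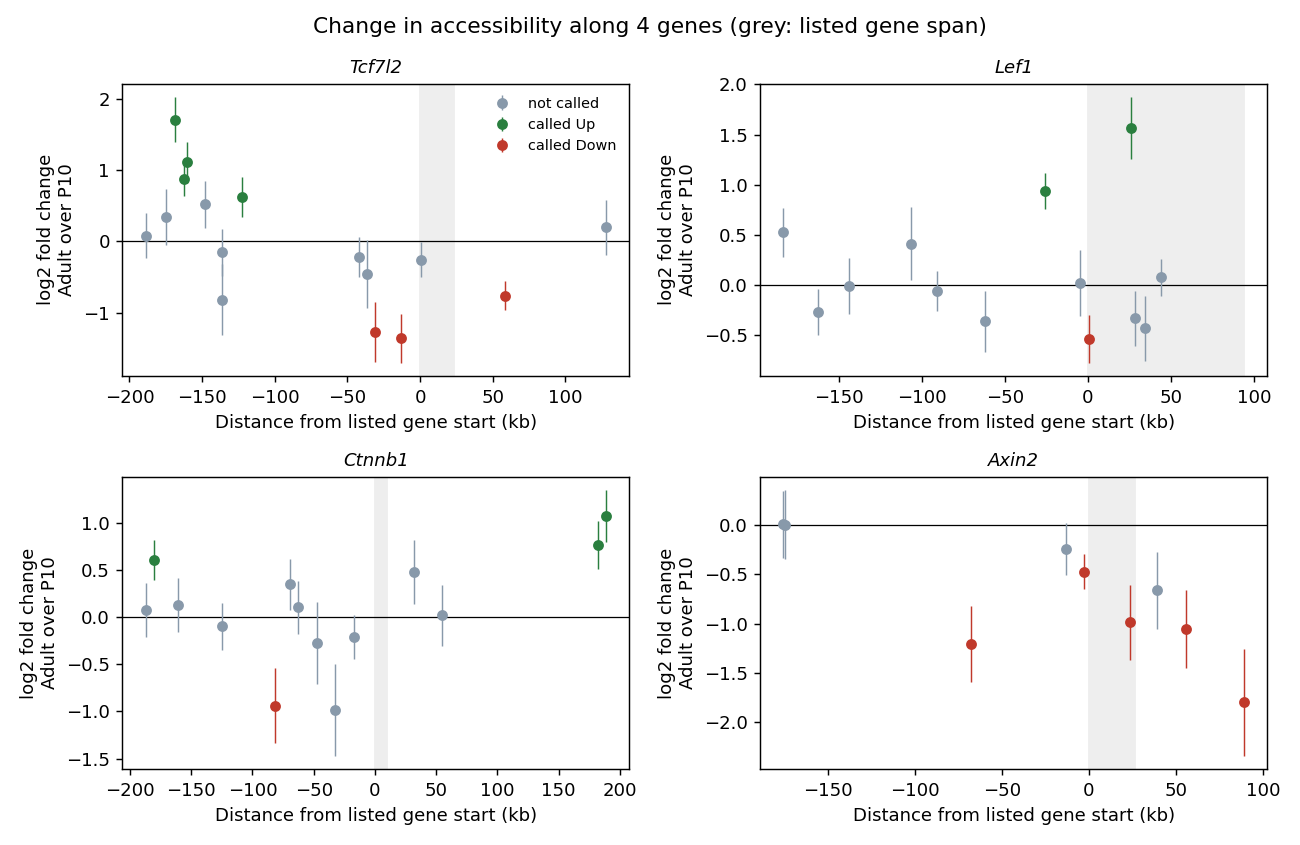
Log2 fold change (Adult over P10, vertical axis, bars 1 SE) against distance from the listed gene start in kb (horizontal axis) for the ACS of *Tcf7l2*, *Lef1*, *Ctnnb1* and *Axin2*, with the listed gene in grey. The called ACS of *Tcf7l2* split by position into an upstream Up group and a Down group around the listed gene, the 2 Up ACS of *Lef1* stand on either side of its Down TSS, and the 5 called ACS of *Axin2* are all Down (TMM scaling).

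*Lef1* encodes a second factor of the family, one well known for raising target genes together with β-catenin. It had 13 ACS, of which 2 were Up and 1 was Down. The ACS at chr2:254756444-254757205, 25943 bp upstream of the start, was among the most accessible of the 95. It held 47.3, 35.5 and 37.5 CPM in adults against 19.3, 23.3 and 20.3 at P10, with no overlap. The log2 fold change was 0.94 ± 0.18 (edgeR adjusted p = 0.000764). Inside the gene, at chr2:254808546-254808921, adults had 12.3, 6.43 and 7.61 CPM and P10 libraries 3.11, 1.78 and 3.91. The change was 1.57 ± 0.31 (edgeR adjusted p = 0.00127), the second largest gain of the 95. Both were called in every fit with a library left out, and were 0.12 and 0.74 without a call when total reads set the library sizes.

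The TSS of *Lef1* went the other way. The ACS at chr2:254782857-254783450, 470 bp inside the gene, lay between both Up ACS at gaps of 25651 and 25095 bp and was the only TSS-class ACS of the 10 genes that was called. It held 7.23, 7.69 and 6.06 CPM in adults and 11.0, 10.1 and 9.36 at P10. The groups did not overlap, and the log2 fold change was -0.53 ± 0.24 (edgeR adjusted p = 0.182). The call was close to the limit and held in 1 of the 6 fits with a library left out, the one without adult replicate 5, while the change stayed between -0.61 and -0.45. The uncalled ACS of *Lef1* with the most integrations, at chr2:254826314-254827116 inside the gene, had 27.8 ± 6.42 CPM in adults and 26.3 ± 1.40 at P10 (SD, n = 3 each). The 10 uncalled ACS ranged from -0.43 to 0.53.

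Promoter sequences are shown for *Lef1*, whose TSS was called, and for *Axin2*, chosen after its values were seen because it was the only gene of the 9 with an entry that had a TCF/LEF core in this window. They come from RefSeq on the GRCr8 assembly and cover the 250 bases before each gene start, on the plus strand. The ACS of the table are on Rn5, so they cannot be placed on these sequences. Capitals mark matches to 3 motifs searched on both strands, TCAAAG for TCF/LEF, TGANTCA for AP-1 and CAACAGGT for SCRT1. The window of *Lef1* is chr2:222340463-222340712 and that of *Axin2* is chr10:94398535-94398784.
Lef1: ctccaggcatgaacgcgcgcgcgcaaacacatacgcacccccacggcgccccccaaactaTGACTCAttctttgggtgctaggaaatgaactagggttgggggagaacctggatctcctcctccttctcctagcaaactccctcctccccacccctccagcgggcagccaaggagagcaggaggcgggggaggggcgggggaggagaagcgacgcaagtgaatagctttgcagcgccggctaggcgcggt
Axin2: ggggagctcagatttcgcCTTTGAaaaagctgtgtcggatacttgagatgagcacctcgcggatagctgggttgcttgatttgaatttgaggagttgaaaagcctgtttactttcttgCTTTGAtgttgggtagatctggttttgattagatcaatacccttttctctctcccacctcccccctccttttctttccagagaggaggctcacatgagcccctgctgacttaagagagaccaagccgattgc
The *Lef1* window held 1 AP-1 match that began 190 bp before the start. The *Axin2* window held 2 TCF/LEF cores, both as CTTTGA, beginning 232 and 132 bp before the start. Of 33469 rat promoters of the same length, 13.9% held a TCF/LEF core, 6.34% an AP-1 match and 0.607% a SCRT1 match. The other 7 genes with an entry held none of the 3 motifs, and *Wnt5b* had no entry. A match of letters is a description and says nothing of binding.

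*Tcf7l1* encodes the TCF factor best known as a repressor. It had 6 ACS and 3 calls. Upstream of the gene, at chr4:165445584-165445797, adults had 8.77, 7.30 and 12.6 CPM against 3.67, 5.28 and 4.44 at P10. The values did not overlap and the log2 fold change was 1.10 ± 0.27 (edgeR adjusted p = 0.00884), called in all fits with a library left out and 0.27 without a call with total reads. The 2 Down ACS were inside the gene and weak. At chr4:165342259-165342555 adults had 1.77 ± 0.37 CPM and P10 had 3.31 ± 0.35 (SD, n = 3 each), a change of -0.91 ± 0.35 (edgeR adjusted p = 0.114). This call was lost without adult replicate 5 or P10 replicate 2. Over all fits with a library left out the change was between -1.01 and -0.74. At chr4:165415198-165415419 the values were 0.271, 1.07 and 1.80 CPM in adults and 1.95, 2.07 and 2.33 at P10. Adult library 4 had 3 integrations there, and the change of -1.08 ± 0.47 (edgeR adjusted p = 0.167) was called only when adult replicate 6 was left out and ranged from -1.67 to -0.58.

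The TSS of *Tcf7l1*, at chr4:165426371-165427721, had 22.5, 26.4 and 24.5 CPM in adults and 31.7, 31.7 and 30.2 at P10. Its groups were separate, but the log2 fold change of -0.35 ± 0.17 missed the limit (edgeR adjusted p = 0.241). It passed with column sums (-0.44), with cyclic loess scaling (-0.44), with total reads (-1.19) and without adult replicate 5 (-0.41). Of the 35 ACS of the 3 TCF/LEF genes together, 7 were Up and 6 Down.

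**Figure D3:**
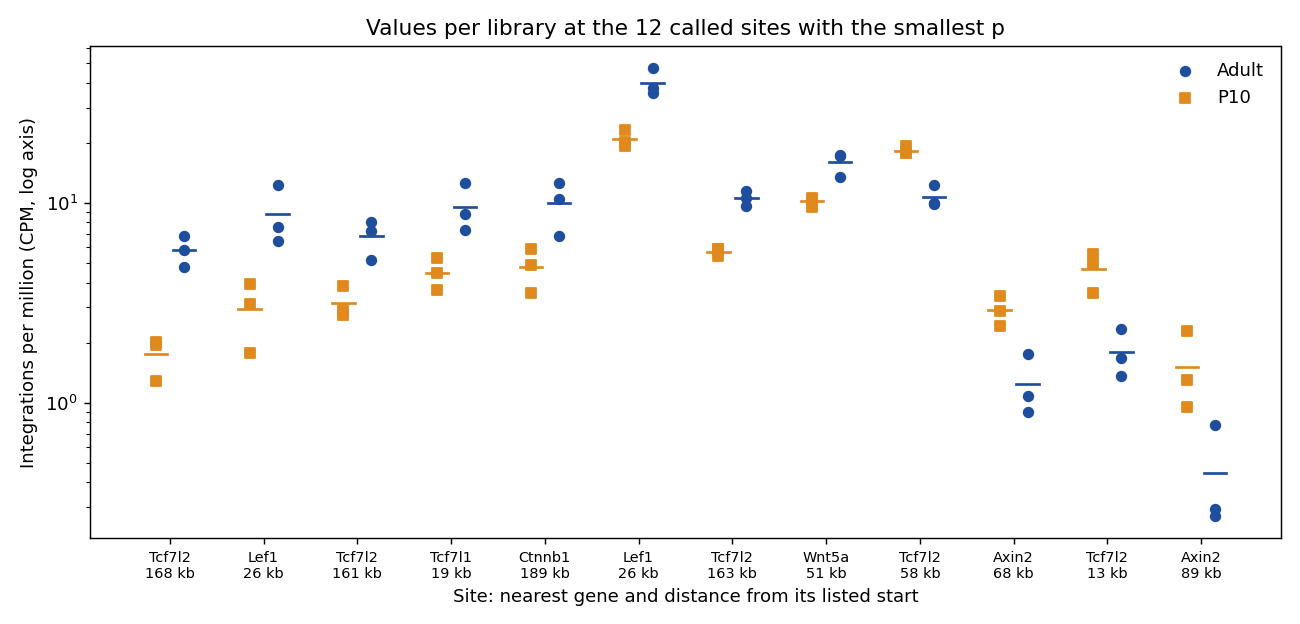
CPM (log axis) in each library at the 12 called ACS with the smallest p-values, labelled by nearest gene and distance from its listed start, where circles are adult and squares are P10 libraries and lines are group means. The ages do not overlap at any of the 12, which were picked by p-value. In the whole series 84.3% of Up and 83.0% of Down ACS do not overlap. The *Lef1* ACS with a mean of 40.1 CPM in adults is the most accessible of the 12.

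*Axin2* had 9 ACS, of which 5 were Down and none Up. Of the 3175 genes with at least 9 ACS, 27 had at least 5 Down and no Up. These limits were taken from the values of *Axin2*, which is among the 27 by construction. The set also holds genes with more ACS, so the count is a description only. The ACS at chr10:96865612-96866028, 67810 bp upstream, had 1.08, 1.75 and 0.902 CPM in adults and 2.88, 2.42 and 3.44 at P10. Every adult value was lower, with a change of -1.21 ± 0.39 (edgeR adjusted p = 0.0468) that was called in all fits with a library left out. The proximal ACS, at chr10:96930594-96931625 and 2828 bp upstream of the start, was the most accessible of the gene. It held 20.4, 20.5 and 18.3 CPM in adults against 27.7, 28.8 and 25.8 at P10. The change was modest, -0.47 ± 0.18 (edgeR adjusted p = 0.107), with separate groups. It was not called without adult replicate 6 or P10 replicate 2, and over all fits with a library left out it ranged from -0.53 to -0.42.

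The 3 other Down ACS of *Axin2* lay inside and downstream of the gene. The last of them rested on few integrations. At chr10:97022571-97022819, 89149 bp beyond the start, the counts were 3, 3 and 6 in adults and 28, 32 and 18 at P10. These correspond to 0.271, 0.292 and 0.773 CPM against 1.3, 2.28 and 0.952 CPM. The groups were separate and the change of -1.80 ± 0.54 (edgeR adjusted p = 0.0338) was the largest loss of the 95, not called without P10 replicate 2 (-1.42). At chr10:96989153-96989633 adults had 0.542, 3.51 and 3.35 CPM and P10 had 4.23, 5.99 and 4.86. Adult library 4 lay far below the other adults, and the change was -1.05 ± 0.40 (edgeR adjusted p = 0.104). It was not called without adult replicate 4 (-0.54), P10 replicate 2 (-0.92) or P10 replicate 3 (-1.08). Inside the gene, at chr10:96957230-96957700, adults had 2.26, 4.77 and 0.644 CPM and P10 had 5.62, 4.64 and 5.39. These groups overlapped and the change was -0.99 ± 0.38 (edgeR adjusted p = 0.116). Of the fits with a library left out, it was called only without adult replicate 5 or P10 replicate 2. Over all of these fits it ranged from -1.76 to -0.58. The 4 uncalled ACS of *Axin2* had changes between -0.66 and 0.01. All 5 Down ACS kept their sign and call with column sums, total reads and cyclic loess scaling, while DESeq2 gave no adjusted p and so no call for the ACS at 97022571.

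*Apc*, the large scaffold of the destruction complex, had 12 ACS with 1 Up and 1 Down, both far upstream. They were 13388 bp apart. The Down ACS, at chr18:26593283-26593703, had 4.43, 4.58 and 4.77 CPM in adults and 9.06, 6.92 and 6.24 at P10. It changed by -0.69 ± 0.27 (edgeR adjusted p = 0.112) and was not called without adult replicate 4 or P10 replicate 1. Over all fits with a library left out it ranged from -0.82 to -0.53. The Up ACS, at chr18:26607092-26607636, had 9.94, 9.45 and 11.9 CPM in adults and 5.07, 7.99 and 6.5 at P10. It changed by 0.68 ± 0.25 (edgeR adjusted p = 0.0889) and was -0.14 with total reads. It was not called without adult replicate 6, P10 replicate 1 or P10 replicate 3. Over all fits with a library left out it ranged from 0.51 to 0.83. The ages did not overlap at either ACS. The most accessible ACS of *Apc* per length, at chr18:26749840-26750651, had 42.5 ± 4.87 CPM in adults and 34.8 ± 4.88 at P10 (SD, n = 3 each) and was not called, with a change of 0.29 ± 0.17 (edgeR adjusted p = 0.351).

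*Ctnnb1*, which encodes β-catenin, had 14 ACS, all distal, with 3 Up and 1 Down. The clearest was at chr8:129004091-129004402, 188788 bp beyond the start, with 12.7, 10.5 and 6.83 CPM in adults and 5.90, 4.92 and 3.54 at P10. Its lowest adult value was above its highest P10 value, and the change was 1.07 ± 0.27 (edgeR adjusted p = 0.0116), called in all fits with a library left out and 0.22 without a call with total reads. Its neighbour 6061 bp away, at chr8:128997537-128998029, had 16.3, 17.4 and 12.6 CPM in adults and 13.5, 7.28 and 6.5 at P10. P10 library 1 lay within the adult range, and the change was 0.76 ± 0.25 (edgeR adjusted p = 0.0580), lost without P10 replicate 2 (0.61) or P10 replicate 3 (0.55). On the other side of the gene, at chr8:128634738-128635436, adults had 28.6, 20.2 and 20.1 CPM and P10 had 19.3, 13.5 and 12.4. The change was 0.60 ± 0.21 (edgeR adjusted p = 0.0769), and the call was lost without adult replicate 4, P10 replicate 2 or P10 replicate 3. Over all fits with a library left out the change ranged from 0.41 to 0.82. With total reads this ACS was -0.27 and the neighbour -0.13. The Down ACS, at chr8:128733702-128734044, had 1.27, 2.24 and 0.773 CPM in adults and 3.58, 2.21 and 2.54 at P10, with overlap, and changed by -0.94 ± 0.40 (edgeR adjusted p = 0.158). Of the fits with a library left out, it was called only without adult replicate 5 or P10 replicate 2. Over all of these fits it ranged from -1.41 to -0.68. No TSS-class or proximal ACS was listed for *Ctnnb1*, whose listed span is 9510 bp. Classes and distances depend on this listed start. Whether the promoter in use lies there was not tested.

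The 3 ligand genes had 15 ACS, 2 Up and 1 Down. *Wnt5a* had both Up ACS. At chr16:4363444-4363798, 51068 bp upstream, adults had 17.4, 13.4 and 17.1 CPM and P10 had 9.58, 10.4 and 10.6. The groups were separate and the change was 0.65 ± 0.21 (edgeR adjusted p = 0.0550), called whichever library was left out. At chr16:4775655-4776014, 361143 bp beyond the start, adults had 6.42, 5.06 and 7.86 CPM and P10 had 4.09, 3.78 and 3.75. The change was 0.72 ± 0.28 (edgeR adjusted p = 0.111), and was not called without adult replicate 6, P10 replicate 2 or P10 replicate 3. Over all fits with a library left out it ranged from 0.57 to 0.87. With total reads these changes were -0.18 and -0.13, above the median of all ACS but below 0. *Wnt5a* had no TSS-class or proximal ACS, and the nearest genes listed on its sides, *Erc2* and *Cacna2d3*, lay 185859 and 377207 bp away.

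*Wnt4* had 5 ACS and 1 Down call. The called ACS, at chr5:159359626-159359874, had 0.904, 0.974 and 0.644 CPM in adults and 1.63, 2.14 and 1.74 at P10, and counts of 5 to 35. It changed by -1.09 ± 0.43 (edgeR adjusted p = 0.118) and was not called without adult replicate 6, P10 replicate 2 or P10 replicate 3. Over all fits with a library left out it ranged from -1.20 to -0.95. At the TSS of *Wnt4*, chr5:159404911-159405307, adults had 7.18 ± 1.55 CPM and P10 had 7.73 ± 0.99 (SD, n = 3 each), a change of -0.10 ± 0.25 (edgeR adjusted p = 0.886). *Wnt5b* had 2 ACS and no call. Its proximal ACS, at chr4:217423783-217424256 inside the gene, had 12 ± 2.95 CPM in adults and 11.3 ± 2.49 at P10 (SD, n = 3 each), a change of 0.09 ± 0.24 (edgeR adjusted p = 0.884) whose sign turned with cyclic loess scaling (-0.05), with total reads (-0.77), without adult replicate 5 (-0.13) and without P10 replicate 3 (-0.07).

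*Lgr4* had no called ACS. All 10 of its ACS lay at or inside the gene and had log2 fold changes between -0.22 and 0.06, with overlapping groups at each. Of the 2815 genes with at least 10 ACS, 176 had no call. That limit was taken from *Lgr4* itself, and genes with more ACS have more chances of a call. In the same pathway *Rspo2* with 13 ACS and *Rspo3* with 15 also had none. Its TSS-class ACS, at chr3:107651333-107652489, was the most accessible of the 95 per length, at 93.8 CPM per kb. Adults had 124, 95.6 and 91.1 CPM there and P10 had 110, 119 and 111. The P10 values lay within the adult range, and the change was -0.13 ± 0.15 (edgeR adjusted p = 0.684). At this ACS, which had the largest counts of the 95, the SE was the smallest of them. With total reads it was -0.96 and called. The ACS at chr3:107665539-107666205, inside the gene, followed in level with 24.0 ± 4.28 CPM in adults and 28 ± 1.86 at P10 (SD, n = 3 each).

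Summed over all ACS of a gene, *Axin2* differed most between the ages. Its sum was 39.3 ± 4.40 CPM in adults and 56.8 ± 2.64 at P10 (SD, n = 3 each), a log2 ratio of -0.54. The values did not overlap, and the exact two-sided permutation test gave p = 0.1, the smallest that 3 against 3 libraries allow, with 0.333 after adjustment over the 10 genes. *Wnt5a* was the other way, with 37.5 ± 3.02 against 30.5 ± 1.28 CPM and a log2 ratio of 0.29 (exact permutation p = 0.1, adjusted 0.333). *Apc* was also separate, with 115 ± 3.72 against 107 ± 6.18 CPM and a log2 ratio of 0.10 (exact permutation p = 0.1, adjusted 0.333). The sums of the other 7 genes overlapped. *Ctnnb1* had 104 ± 13.4 and 85.0 ± 16.3 CPM, *Lef1* had 145 ± 19.6 and 124 ± 6.63 CPM, and *Tcf7l2* had 74.7 ± 5.14 and 74.3 ± 5.85 CPM. The opposite calls of *Tcf7l2* thus stood beside a log2 ratio of its sum of 0.01. The sum over all ACS of the series had an adult over P10 ratio of 1.07, a value set by the TMM factors of the libraries. With total reads as library sizes all 10 ratios were negative, from -1.36 for *Axin2* to -0.52 for *Ctnnb1*. With column sums *Axin2* was at -0.63 and *Wnt5a* at 0.20.

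**Figure D4:**
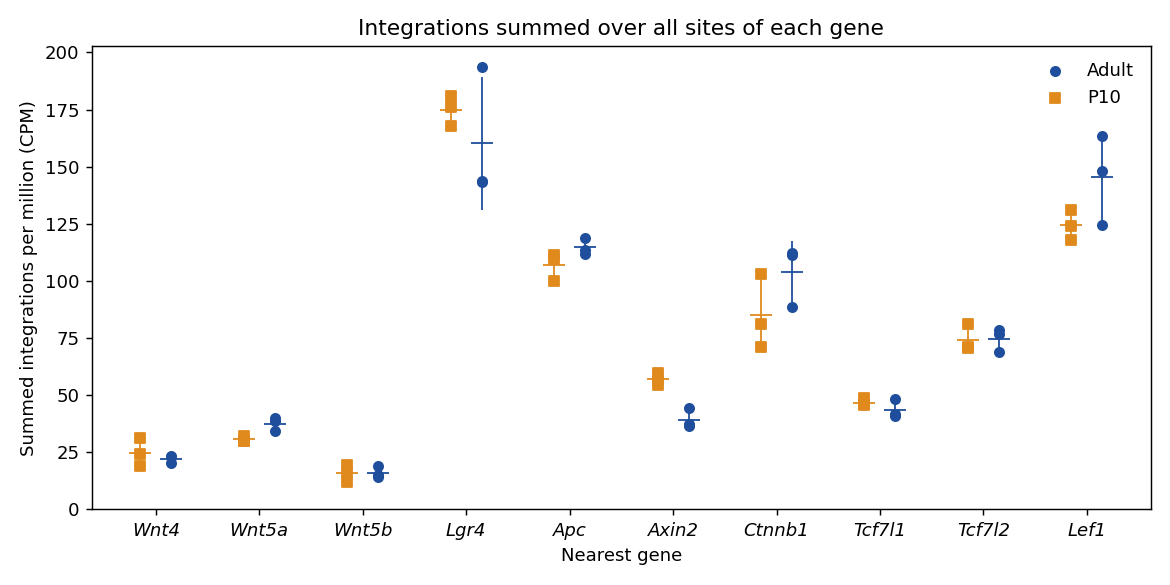
CPM summed over all ACS of each gene (vertical axis) in each library, with group means and bars of 1 SD (n = 3). Only *Wnt5a*, *Apc* and *Axin2* show no overlap between the ages, and *Axin2* is the one of these that is lower in adults with TMM scaling, while all 3 are lower with total reads.

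Per kb of ACS, *Lgr4* had the highest accessibility of the 10 genes, at 39.5 CPM per kb, followed by *Wnt5b* with 19.6, *Lef1* with 18.9 and *Apc* with 18.3. *Axin2* had the lowest, at 11.2, just below *Wnt4* with 11.7. The value of *Lgr4* rested largely on its TSS-class ACS. That ACS held 103 of the 160 CPM of the gene in adults and 114 of 175 at P10 (means). No TSS-class ACS was listed for *Wnt5a*, *Wnt5b*, *Apc*, *Axin2* or *Ctnnb1*, so the ranking partly reflects which genes have one. The profile over the 6 libraries was compared with that of 8421 other genes with at least 3 ACS. The most alike gene was *Lrfn2* for *Wnt5a* (Pearson r = 0.998), *Rps20* for *Lef1* (0.997) and *Skap1* for *Axin2* (0.993). These are the highest of many correlations over 6 libraries of 2 ages and serve as a description only.

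The other genes of the pathway were taken from a list of 94, of which 78 had at least 1 ACS. They held 670 ACS, of which 82 were Up (12.2%) and 40 Down (5.97%), close to the background in both directions. The Up share of calls depended on scaling, with 67 Up and 84 Down with column sums and 70 Up and 69 Down with cyclic loess. The shares by class below stand beside 12.3% Up and 6.63% Down of all ACS. Receptors and co-receptors had 25 Up and 11 Down of 169 ACS (14.8% and 6.51%). Nuclear partners of β-catenin and TCF/LEF had 14 Up and 1 Down of 69 (20.3% and 1.45%). A single gene, *Tle1*, held 42 of these 69 ACS, with 10 of the Up and the 1 Down. Inhibitors had 11 Up and 13 Down of 122 (9.02% and 10.7%), and the other ligands 1 Up and 5 Down of 54 (1.85% and 9.26%). None of the 29 ACS of R-spondin genes was called. Cytoplasmic components had 10 Up and 2 Down of 67 (14.9% and 2.99%), and planar polarity genes 8 Up and 2 Down of 67 (11.9% and 2.99%). Other targets had 12 Up and 6 Down of 78 (15.4% and 7.69%). Of these 78, *Myc* alone held 53, with 9 Up and 3 Down. Ligand release genes had 1 Up and 0 Down of 15.

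The 12 called ACS with the smallest p-values in that list were all Up and distal. The first was inside *Lgr5*, a relative of *Lgr4* and itself a Wnt target, at chr7:58475668-58476345. It held 39.7, 32.6 and 37.0 CPM in adults and 9.71, 9.70 and 12.2 at P10, and the groups were far apart, with a log2 fold change of 1.79 ± 0.19 (edgeR adjusted p = 7.1e-07). An ACS nearest to *Fzd8*, a Frizzled receptor, but 469413 bp away from it, gained 1.61 ± 0.20. One nearest to the co-receptor *Lrp6*, at 11545 bp, gained 1.02 ± 0.21. *Tle1*, a co-repressor that binds TCF/LEF factors, had 2 of the 12. The ACS inside the gene gained 1.34 ± 0.25 and the one 720903 bp upstream gained 1.15 ± 0.21. The rest were nearest to *Vangl1*, *Tnfrsf19*, *Ror1*, *Myc*, *Fzd1*, *Dkk2* and *Prickle1*, with log2 fold changes between 0.95 and 1.95. Those of *Fzd1* and *Prickle1* lay 261253 and 365752 bp away.

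Markers of cell types in or near islets were counted beside the shares of all ACS, 12.3% Up and 6.63% Down. ACS of α-cell markers had 22 Up and 3 Down of 103 (21.4% and 2.91%), and their summed accessibility was 858 to 987 CPM in adults and 696 to 790 at P10. Endothelial markers had 10 Up and 3 Down of 71 (14.1% and 4.23%), with sums of 648 to 715 and 575 to 597 CPM. Mesenchymal markers had 10 Up and 5 Down of 69 (14.5% and 7.25%, with 451 to 520 and 429 to 444 CPM), leukocyte markers 2 Up and 1 Down of 13 (81.6 to 93.3 and 61.3 to 73.4 CPM) and duct markers 4 Up and 7 Down of 41 (265 to 292 and 244 to 259 CPM). The sums of these 5 lists did not overlap between the ages and were higher in adults. The sum over all ACS had an adult over P10 ratio of 1.07 and no overlap, but it is set by the TMM factors and is not a measured rise. The ratios of the 5 lists were 1.25 for α-cells, 1.17 for endothelium, 1.12 for mesenchyme, 1.31 for leukocytes and 1.14 for duct. Genes within a list differed in direction, and single genes weighed heavily. *Cd74* had 37.2 to 48.3 CPM in adults and 24.5 to 28.5 at P10, *Cdh5* 174 to 203 and 120 to 140, and *Cftr* 92.5 to 137 and 60.6 to 90.7. *Muc1* (15.1 to 21.1 against 22.9 to 32.1) and *Plvap* (7.40 to 11.0 against 11.1 to 14.4) were lower in adults. *Ptprc*, *Pecam1*, *Tie1*, *Spp1*, *Col1a1* and *Gcg*, among others, overlapped between the ages. β-cell markers had 14 Up and 11 Down of 97, acinar markers 6 Up and 12 Down of 90, delta-cell markers 1 Up and 3 Down of 10, cycling markers 3 Up and 1 Down of 22 and glial markers no call in 3, and of these the glial sums alone did not overlap, with 7.61 to 9.06 CPM in adults and 10.1 to 12.3 at P10. No ACS was listed for *Cel*, *Krt7*, *Acta2*, *Cd68*, *Aif1*, *Sox10*, *Foxd3* or *Mki67*. The part of cell composition in the changes near the Wnt pathway genes was not tested.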

How the data were processed

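ATAC-seq libraries of dissociated rat islet cells were used, 3 Adult and 3 P10, grouped by the age in the labels. Per the methods of the study and the processing notes, the authors checked reads with FastQC 0.11.2, aligned them to Rn5 with BWA 0.7.13, processed them with SAMtools 1.3, left out mitochondrial and poorly mapped reads, ran MACS2 2.1.1 on each age's concatenated samples to find ACS, and merged the results. The removal of PCR duplicates is not given in the sources used here, and duplicates would make the counts look more precise than they are. The deposited counts are whole-number Tn5 integrations per ACS and library, without normalization, so differences in depth and in the share of reads inside ACS remain in them. The deposited distances and widths are in bp. The table also holds the authors' own log2 fold changes, p-values and FDR, which were not used.

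Of 101941 entries, 101603 were distinct and 338 were repeats, and each ACS was tested once without a filter on low counts. The test was the quasi-likelihood F test of edgeR 4.0.16 in R 4.3.3, with TMM factors, age as the only term and Benjamini-Hochberg adjustment over all ACS, and was tested on simulated data. SEs were derived from the log2 fold change and the F statistic. CPM are counts over TMM-scaled library sizes. Distances run from the listed gene start to the first coordinate of the ACS. Sums per gene were compared by exact two-sided permutation tests over the 10 splits. Alternatives used limma 3.58.1 (voom and cyclic loess with limma-trend) and DESeq2 1.42.0, column sums, total reads as library sizes, a filter on low counts, an FDR under 0.05, ACS within 100 kb, every listed entry, and leaving out each library. Total reads per library were taken from the quality table of the study as library sizes. Figures were drawn with matplotlib 3.10.9.

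The text names every called ACS and every TSS-class ACS of the 10 genes, and for a gene with neither its ACS with the highest mean count. The ACS of *Lef1* inside the gene, of *Apc* and of *Lgr4* described without a call were chosen after their values were seen. The 10 genes and the lists were chosen with earlier results of these data known. Sequences of ACS were not analysed here.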

Additional observations from a re-analysis of the deposited data

How the results depend on the processing

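Library scaling mattered most. With total reads as library sizes 1 ACS of the 10 genes was Up and 67 Down, against 13 and 14. The other pathway genes had 7 and 445 against 82 and 40, and all ACS 1062 and 61663 against 12504 and 6738. With the same sizes the sign turned at *Apc* 26607092 (-0.14), *Ctnnb1* 128634738 (-0.27) and 128997537 (-0.13), *Tcf7l2* 283972964 (-0.20), *Wnt5a* 4363444 (-0.18) and 4775655 (-0.13) and *Wnt5b* 217423783 (-0.77, and -0.049 with cyclic loess), each named by its first coordinate. The log2 ratios of summed CPM were then -0.96 for *Wnt4*, -0.53 for *Wnt5a*, -0.79 for *Wnt5b*, -0.97 for *Lgr4*, -0.72 for *Apc*, -1.36 for *Axin2*, -0.52 for *Ctnnb1*, -0.93 for *Tcf7l1*, -0.82 for *Tcf7l2* and -0.61 for *Lef1*. With column sums those of *Wnt5a* and *Apc* were 0.20 and 0.0062. At an FDR under 0.05 the 10 genes had 7 Up and 4 Down, the other pathway genes 45 and 19 and all ACS 7177 and 1945. With column sums the Down counts of the other pathway genes and of all ACS were 84 and 10732, and with cyclic loess the former was 69. Within 100 kb 4 Up remained in the count of the 10 genes. Leaving out 1 library gave 8 to 14 Up and 7 to 14 Down for the 10 genes, 46 to 89 and 25 to 57 for the other pathway genes, and 7973 to 13232 and 3285 to 7215 for all ACS, the lowest of the last 4 without P10 replicate 2. In these fits the *Wnt4* TSS ranged from -0.21 to 0.061 and *Wnt5b* 217423783 from -0.13 to 0.26. For the 10 genes, DESeq2 gave 13 Up and 12 Down, voom 13 and 14, cyclic loess 12 and 15, column sums 12 and 17, the filter on low counts 13 and 14 and every listed entry 13 and 14. Of the 32 named ACS, 30 kept their direction and call with DESeq2, which gave no adjusted p for *Axin2* 97022571 and no call for *Tcf7l1* 165415198, 32 with voom and 32 with the filter. The causes were not tested. No paired analysis was possible because the 2 groups share no replicate number. Counts were as low as 3 integrations in a library at the called ACS *Axin2* 97022571.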
